A study of Danio rerio with 67 samples.

Results

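The genes described here are the voltage-gated and related ion channel genes of the zebrafish whose Ensembl symbol begins with kcn, scn, cacn, clcn or hcn. They were selected on their measured counts: of 207 genes with such a symbol, 84 had 5 or more reads in at least 1 cell and were kept, 63 had no read in any cell, and 60 had at most 1 to 4 reads in any cell. The table held 32266 genes, of which 14883 reached 5 reads in a cell. The threshold divided genes with nearly equal counts: KCNH5 (ENSDARG00000069117) and KCNH8 were among those kept with a highest count of 5, and CACNA1S, cacna1db, cacnb2a and kcnk17 were left out at a highest count of 4. No hcn gene was kept; HCN4, for example, had at most 1 read in any cell. Symbols are printed as the gene name table gives them, often in the human spelling, and a gene ID is added where 1 symbol stands for several zebrafish genes.

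Voltage-gated potassium, sodium and calcium channels open when the membrane is depolarised, and each is built from a pore-forming subunit with auxiliary subunits that set its level at the surface and its kinetics. Inwardly rectifying and two-pore potassium channels hold the resting potential and, in glia, carry potassium taken up from the extracellular space. In mammals, progenitors of the oligodendrocyte lineage carry voltage-gated currents and receive synaptic input, and these currents are lost as the cells mature into myelinating oligodendrocytes. The prefixes also take in genes that are not surface channels. CLCN3 to CLCN7 encode chloride/proton exchangers of endosomes and lysosomes in mammals, the cacng genes other than CACNG1 encode auxiliary subunits of AMPA-type glutamate receptors, and SCNM1 encodes a splicing factor.

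Each of the 67 libraries was 1 sorted spinal cord cell. The donors were adult zebrafish of the line Tg(olig2:eGFP), in which the olig2 promoter drives a green fluorescent protein in oligodendrocyte lineage cells, motor neurons and their progenitors. The lesion group was 32 cells taken 7 days after transection of the cord, and the sham group was 35 cells from fish operated in the same way with the cord left intact. Each group came from 1 pool of 9 cords, so each group counts as 1 sample and no test was made. Intervals are of shares of cells. They treat the cells of a pool as independent draws and do not cover the spread between fish or pools. All sham cells stood in plate columns 1 to 6 and all lesion cells in columns 7 to 12, so that operation, pool and plate side cannot be told apart.

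Every cell was labelled an oligodendrocyte progenitor cell (OPC), but plp1b, which encodes a major myelin protein, divided the cells into 2 sets. At a split of 10000 CPM (reads of a gene per 1000000 reads on genes), 15 lesion cells and 6 sham cells were plp1b-low, and 17 lesion cells and 29 sham cells were plp1b-high. The highest plp1b-low cell had 614 CPM and the lowest plp1b-high cell 19557 CPM of plp1b. The sum of 12 oligodendrocyte markers ranged from 1.956 to 3696 CPM per cell in lesion and from 0 to 2560 CPM in sham plp1b-low cells, against 89844 to 298011 CPM in lesion and 135313 to 266009 CPM in sham plp1b-high cells. In each group, 50% or more of the plp1b-high cells had 5 or more reads of 10 of these markers. The marker cnp ran the other way, at 513 CPM and 421 CPM in plp1b-low lesion and sham cells. It was at 10.8 CPM and 0.12 CPM in plp1b-high lesion and sham cells. Of 9 OPC markers, 8 were detected in plp1b-low lesion cells and 6 in plp1b-low sham cells, against 4 in each plp1b-high class. They summed to 1421 CPM in lesion and 2345 CPM in sham plp1b-low cells. The sums in plp1b-high cells were 1775 CPM in lesion and 1586 CPM in sham cells. PDGFRA, a defining OPC marker in mammals, had no read in any class. The label OPC was given to both sets of cells and is not used below. The plp1b-low cells also carried markers of other cell types. Neuron markers, 15 genes in all, summed to 1748 CPM in lesion and 1580 CPM in sham plp1b-low cells, against 311 CPM in lesion and 374 CPM in sham plp1b-high cells. Of the 15, 9 were detected in any cell. The SNAP25 gene ENSDARG00000020609 gave 756 CPM and 771 CPM of the lesion and sham plp1b-low sums. The STMN2 gene ENSDARG00000033234 gave 444 CPM and 457 CPM. ELAVL3 ran the other way in sham cells, at 24.5 CPM in plp1b-low against 260 CPM in plp1b-high cells. In lesion cells ELAVL3 was at 232 CPM against 252 CPM. Motor neuron markers summed to 570.2 CPM in plp1b-low lesion cells, with 5 of 6 detected, and to 1.17 CPM in plp1b-low sham cells, with none detected. Ependymo-radial glia markers, 13 genes in all, summed to 8217 CPM in lesion and 7489 CPM in sham plp1b-low cells, against 934 CPM in lesion and 503 CPM in sham plp1b-high cells. The FABP7 gene ENSDARG00000007697 gave 5032 CPM and 4960 CPM of the lesion and sham plp1b-low sums. This FABP7 gene was detected in 14 of 15 lesion and 6 of 6 sham plp1b-low cells. The SNAP25 gene ENSDARG00000020609 was detected in 11 of 15 and 5 of 6. Both were thus found in most plp1b-low cells, so the neuron and glia sums do not divide these cells into types. Of the 13 genes, 11 were detected in plp1b-low lesion cells and 6 in plp1b-low sham cells, where GFAP, nes and FOXJ1 had no read. In lesion cells nes was lower in plp1b-low cells, at 146 CPM against 454 CPM in plp1b-high cells. The part of these cell types in the channel gene levels was not tested. Reads on genes ranged from 245408 to 771417 per cell.

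Channel transcripts were most numerous in plp1b-low cells. Detection of a gene in a cell means at least 5 reads. Plp1b-low lesion cells had between 1 and 18 detected channel genes with a median of 6, and plp1b-low sham cells had between 4 and 19 with a median of 10.5. Plp1b-high lesion cells had between 0 and 6 with a median of 3, and plp1b-high sham cells between 0 and 4 with a median of 2. All plp1b-low sham cells but the lowest were above every plp1b-high cell, whereas plp1b-low lesion cells overlapped with both plp1b-high classes. Cells also differed in how many genes of any kind they showed, with medians of 2776 and 1991 genes in plp1b-low lesion and sham cells, against 2212 and 1464 genes in plp1b-high lesion and sham cells. Per 1000 detected genes, the median number of channel genes was 1.98 in plp1b-low lesion cells and 4.77 in plp1b-low sham cells, against 1.23 in plp1b-high lesion cells and 0.97 in plp1b-high sham cells. With each cell thinned to 301650 reads, the medians were 5 channel genes in 12 plp1b-low lesion cells and 11 in 5 plp1b-low sham cells, against 3 in 17 plp1b-high lesion cells and 1 in 26 plp1b-high sham cells.

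The summed level overlapped more than the number of genes. The CPM of all 84 genes together ranged from 70.4 to 2077 with a median of 726 per plp1b-low lesion cell, and from 497 to 3444 with a median of 2698 per plp1b-low sham cell. It ranged from 2.30 to 3302 with a median of 551 per plp1b-high lesion cell, and from 5.15 to 1445 with a median of 386 per plp1b-high sham cell. In the summed counts of a class, channel genes took 1072 CPM in plp1b-low lesion cells and 2071 CPM in plp1b-low sham cells, against 765 CPM in plp1b-high lesion cells and 474 CPM in plp1b-high sham cells.

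**Figure D1:**
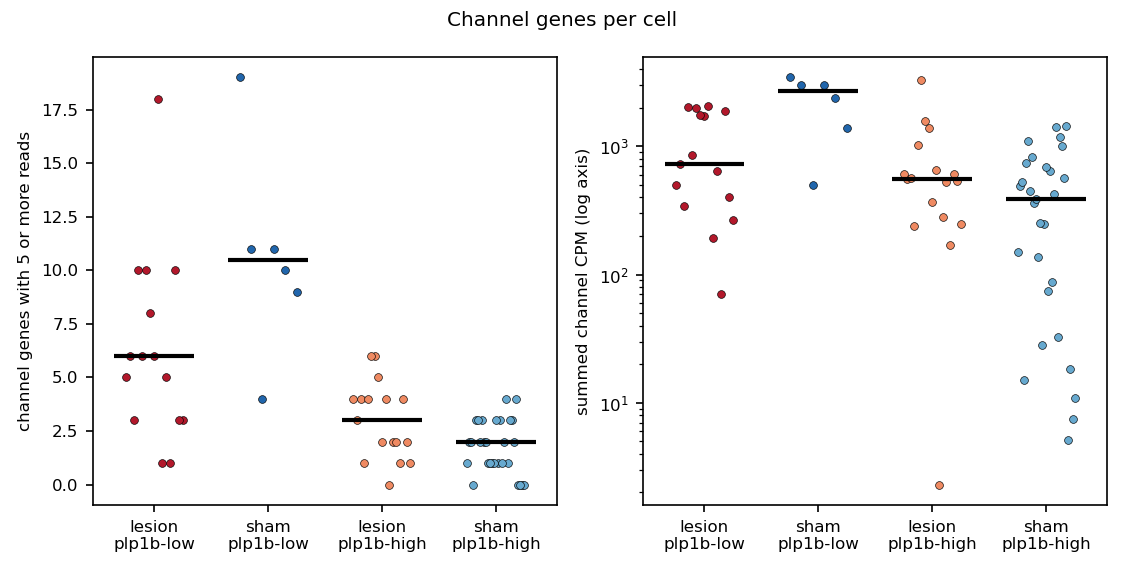
Channel genes with 5 or more reads in each cell (left) and their summed CPM on a log axis (right), 1 point per cell, with a bar at the median of each class. The medians on the left are 6 and 10.5 genes in plp1b-low lesion and sham cells and 3 and 2 genes in plp1b-high lesion and sham cells, while the ranges on the right overlap between all 4 classes.

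Detection was sparse. Of the 84 genes, 30 were detected in 1 cell, 30 in 2 cells, 14 in 3 to 5 cells and 10 in 6 or more cells, the widest being CLCN4 in 30 cells. In plp1b-low lesion cells 55 genes were detected at least once and in plp1b-low sham cells 38, against 19 in each of the plp1b-high classes. The plp1b-high classes held 46 of the 67 cells. Plp1b-low cells alone showed 58 of the 84 genes (69.0%), whereas of all 14883 genes 23.8% were detected in plp1b-low cells alone. Plp1b-high cells alone showed 12 channel genes (14.3%), against 16.7% of all genes. Lesion and sham plp1b-low cells shared 21 detected genes. Of the 30 genes detected in a single cell, that cell was a plp1b-low lesion cell for 19, a plp1b-low sham cell for 5, and a plp1b-high lesion or sham cell for 3 each. The counts of genes detected per class, shared by the plp1b-low classes or found in a single cell were not made for all genes. They describe the 84 genes only. As 58 of the 84 were kept through plp1b-low cells alone, these counts also follow in part from the selection. Channel genes with no read numbered 15 in plp1b-low lesion, 30 in plp1b-low sham and 40 in each plp1b-high class. Of all 14883 genes, 2200 and 6946 had no read in plp1b-low lesion and sham cells. In plp1b-high lesion and sham cells these were 3572 and 3114.

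The plp1b-low cells were set against the plp1b-high cells on CPM of summed counts, as log2 of the ratio after adding 1 CPM to each side. A gene entered if it had at least 1 CPM in either class. Of the channel genes 76 entered, 59 (77.6%) were 2-fold or more higher in plp1b-low cells and 10 (13.2%) were lower by as much, with a median log2 ratio of 2.87. Of all 14014 genes that entered, 44.9% were higher and 26.7% lower by this measure, with a median of 0.68. The 2 sides held lesion and sham cells in different shares. In the lesion group alone, 44 of 60 channel genes (73.3%) were higher and 10 (16.7%) lower, against 47.9% and 27.4% of all genes. In the sham group alone, 38 of 54 (70.4%) were higher and 11 (20.4%) lower, against 37.4% and 45.1% of all genes. A gene that entered through 1 class only had to be higher in that class, though not always by 2-fold. These counts therefore describe the set and carry no further weight. Scaling by the trimmed mean of M values (TMM) put the median of all genes at -0.01, and with it 53 channel genes were higher and 13 lower, at a median of 2.72.

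The families did not move alike. Genes with cacna2d, cacnb or cacng symbols are called calcium auxiliary genes here, although 8 of the 15 encode auxiliary subunits of AMPA receptors. They took 541 CPM in plp1b-low cells, against 7.85 CPM in plp1b-high cells, and voltage-gated potassium pore genes 176 CPM against 6.42 CPM. The family of chloride channels and exchangers stood at 177 CPM in plp1b-low cells and 377 CPM in plp1b-high cells. Its sum was lower in plp1b-low cells of the lesion group, at 98.1 CPM against 628 CPM in plp1b-high cells. In the sham group the sum was 366 CPM against 259.7 CPM in plp1b-high cells, but CLCN4 alone gave 340 CPM of the 366 CPM. Of 7 chloride family genes that entered in each group, 2 were higher and 4 lower in plp1b-low cells, but these were not all the same genes. CLCN4 was lower in the lesion group (log2 ratio -3.24) and higher in the sham group (1.78). Of all genes that entered, 47.9% were higher and 27.4% lower in the lesion group, and 37.4% and 45.1% in the sham group. Genes were also counted over both groups together. Of those entering, 14 of 15 voltage-gated potassium pore genes and 13 of 15 calcium auxiliary genes were 2-fold or more higher in plp1b-low cells. So were 8 of 9 scn genes (the ninth being SCNM1) and 5 of 5 two-pore potassium genes. The scn count differed by group, with 6 of 7 higher and 1 lower in the lesion group. In the sham group 4 of 7 scn genes were higher and 3 lower. Of the 8 chloride family genes that entered, 2 were higher and 4 lower. Of all genes that entered, 44.9% were higher. In plp1b-high cells 3 of the 20 potassium pore genes, 2 of the 15 calcium auxiliary genes and 4 of the 10 scn genes were detected. No two-pore gene was detected there, against 8 of the 9 chloride family genes. Most genes of the first 4 families were thus kept through plp1b-low cells alone, and their direction follows in part from the selection.

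**Figure D2:**
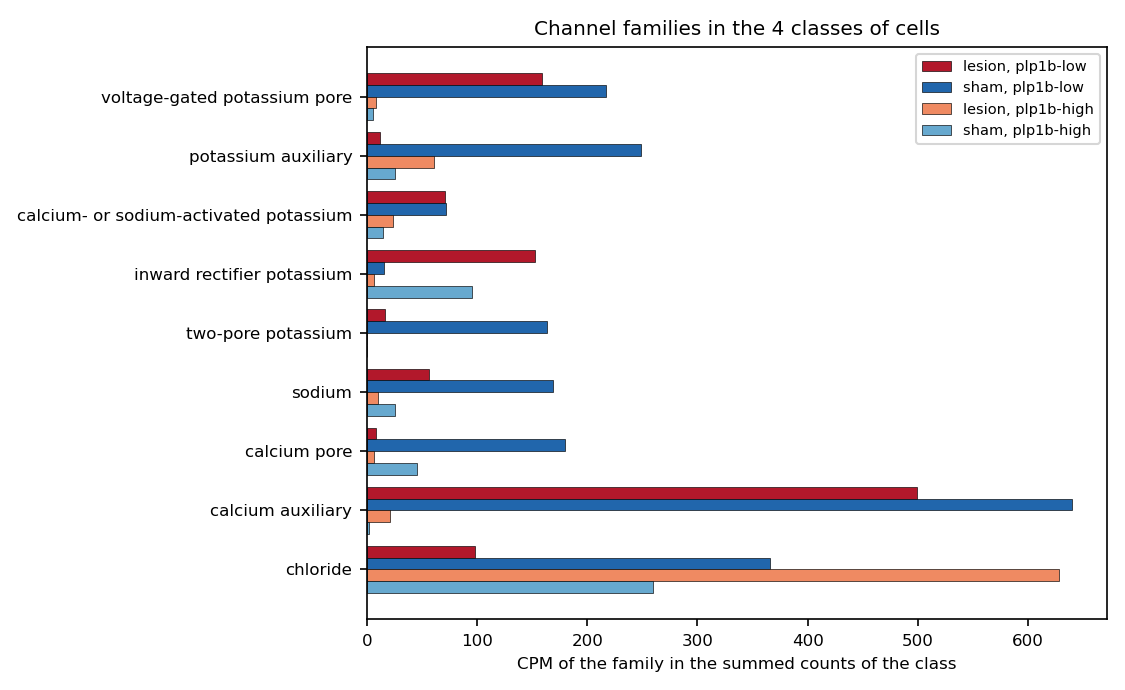
CPM of each channel family in the summed counts of the 4 classes of cells, with bars for plp1b-low lesion, plp1b-low sham, plp1b-high lesion and plp1b-high sham cells from top to bottom in each family. The calcium auxiliary family stands at 499 and 639.8 CPM in plp1b-low lesion and sham cells and at 20.6 and 1.92 CPM in plp1b-high lesion and sham cells, and the chloride family is highest in plp1b-high lesion cells, at 628 CPM.

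Among the calcium auxiliary genes, the 8 cacng genes other than CACNG1 took 234 CPM in plp1b-low cells against 7.22 CPM in plp1b-high cells, and the other 7 genes took 306 CPM against 0.63 CPM. The gene cacnb4b (chromosome 6, 13956935 to 14017542, GRCz10) encodes a beta subunit that brings high-voltage-activated calcium channels to the membrane. Its level per cell ranged from 0 to 2056 CPM with a median of 64.7 in plp1b-low lesion cells, and from 0 to 317 CPM with a median of 0 in plp1b-low sham cells. In the plp1b-high cells it had no read in any lesion cell and 1 read in 1 sham cell. At least 5 reads were found in 8 of 15 plp1b-low lesion cells (exact 95% Clopper-Pearson interval 26.6% to 78.7%) and in 1 of 6 plp1b-low sham cells (0.42% to 64.1%), against 0 of 17 lesion (up to 19.5%) and 0 of 29 sham plp1b-high cells (up to 11.9%). The plp1b-high cells were thus all at or near 0, and the plp1b-low cells were split between high cells and cells at 0. The log2 ratio of plp1b-low over plp1b-high cells was 7.92, and 7.42 without the highest cell of each class.

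CACNG2 (chromosome 3, 29583933 to 29714333), the gene of stargazin, carries AMPA receptors to synapses in mammals. It ranged from 0 to 351 CPM with a median of 0 in plp1b-low lesion cells and from 0 to 614 CPM with a median of 306 in plp1b-low sham cells, and no plp1b-high cell had a read of it. At least 5 reads were found in 2 of 15 lesion and 5 of 6 sham plp1b-low cells. Summed counts held 793 reads in plp1b-low cells, which is at least 719-fold higher than the floor of 3 reads over all plp1b-high cells. A related subunit gene, CACNG5 (ENSDARG00000039240), ranged from 0 to 401 CPM in plp1b-low lesion cells and from 0 to 284 CPM in plp1b-low sham cells, with 1 read in all plp1b-high cells. CACNG3 and the second CACNG5 gene (ENSDARG00000003326) were each detected in 2 plp1b-low cells and had no read in plp1b-high cells. CACNG7 was an exception, with 126 reads in 1 plp1b-high lesion cell and none elsewhere. CACNG4 was at 3.26 CPM and 0.39 CPM in plp1b-low lesion and sham cells, against 2.79 CPM and 1.11 CPM in plp1b-high lesion and sham cells. CACNB1, of another beta subunit, had 115 reads in plp1b-low lesion cells, with 5 or more in 2 cells, and 1 read in each of the other classes. CACNA2D2, of the alpha-2-delta subunits, was at 47.0 CPM in plp1b-low sham cells, with 5 or more reads in 3 of them, against no read in plp1b-low lesion cells and 1 read in each plp1b-high class.

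Of the pore-forming calcium channel genes, CACNA1A, cacna1aa and CACNA1B were found mainly in plp1b-low sham cells, and the other 5 were not detected in any of these cells. CACNA1A, the pore of P/Q-type channels that trigger transmitter release, stood at 0.16 CPM in plp1b-low lesion cells and 84.7 CPM in plp1b-low sham cells, against 0.27 CPM in plp1b-high lesion cells and 0.25 CPM in plp1b-high sham cells. Detection was in 3 of 6 plp1b-low sham cells, from 0 to 372 CPM with a median of 7.10, and in no other cell. Its paralogue cacna1aa was at 64.1 CPM in plp1b-low sham cells, from 2 cells, and the N-type pore gene CACNA1B at 29.9 CPM, also from 2 cells, and both were below 1 CPM in each of the other classes. The T-type pore gene cacna1ha had 683 reads in all, of which 1 plp1b-high sham cell gave nearly all, so its 42.0 CPM in plp1b-high sham cells describes 1 cell.

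**Figure D3:**
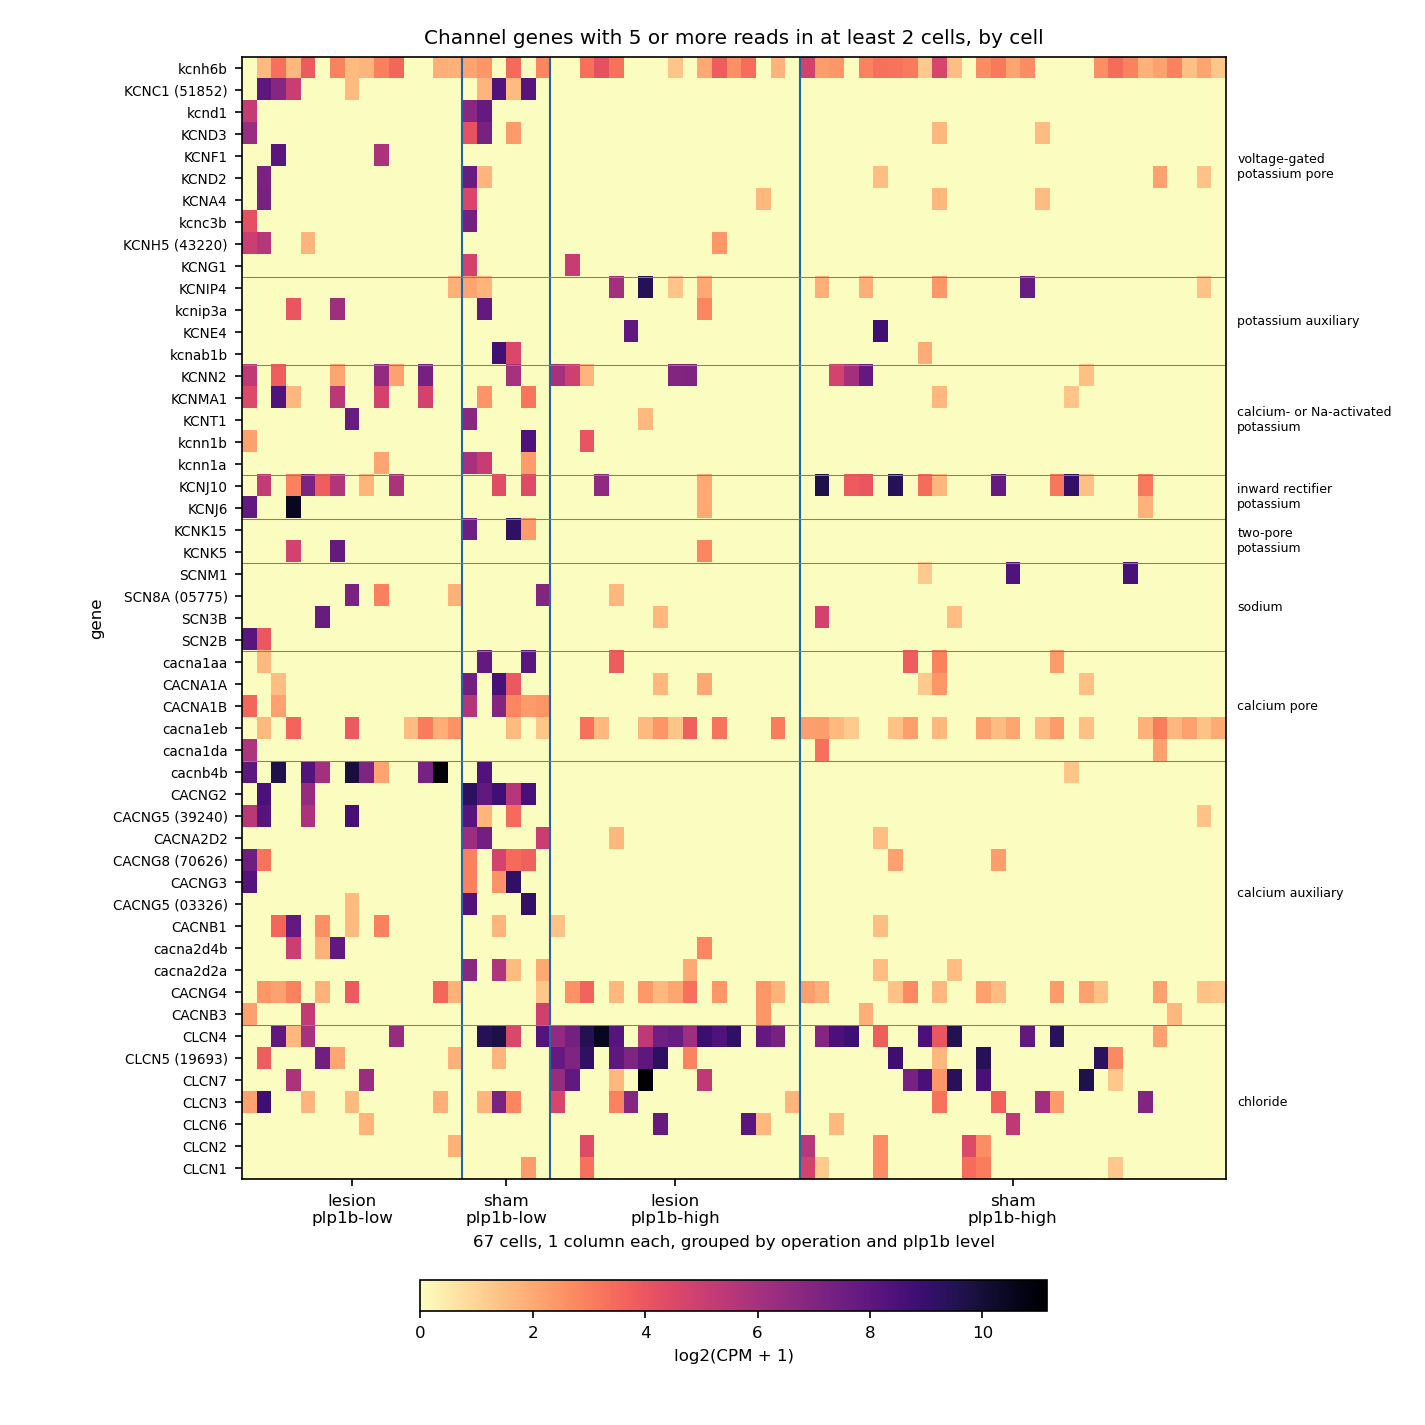
Level of 51 of the 54 channel genes with 5 or more reads in at least 2 cells, as log2(CPM + 1), with genes down the page by family and the 67 cells across it by class. Most calcium auxiliary genes are dark in some plp1b-low cells and light in plp1b-high cells, and CLCN4, CLCN5 and CLCN7 are dark in cells of both plp1b-high classes.

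Several voltage-gated potassium pore genes were high in a few plp1b-low cells. KCNC1 (ENSDARG00000051852), whose channel repolarises fast-firing neurons, ranged from 0 to 255 CPM in plp1b-low lesion cells and from 0 to 314 CPM in plp1b-low sham cells, with no read in any plp1b-high cell. Both groups contributed, with 3 lesion and 2 sham plp1b-low cells. Summed counts gave at least 368-fold higher levels in plp1b-low cells, against the floor of 3 reads over all plp1b-high cells. KCNF1, a subunit that forms no channel alone and modifies others, had 162 reads in 2 plp1b-low lesion cells and none in any other class. The A-type pore genes kcnd1, KCND2 and KCND3 were detected in 3, 2 and 3 plp1b-low cells, with 137, 129 and 97 reads, and together had 5 reads in all plp1b-high cells. By contrast kcnh6b, of the ether-a-go-go family, lay at 3.91, 4.66, 4.12 and 4.89 CPM in plp1b-low lesion, plp1b-low sham, plp1b-high lesion and plp1b-high sham cells. It had 146 reads in all, and its level was alike in the 4 classes.

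The potassium auxiliary genes included some found in plp1b-high cells. The calcium-binding KCNIP proteins associate with the A-type pores. KCNIP4 stood at 0.16 CPM in plp1b-low lesion and 0.78 CPM in plp1b-low sham cells, against 49.1 CPM in plp1b-high lesion cells, from 2 cells, and 9.78 CPM in plp1b-high sham cells, from 1 cell. KCNE4, an inhibitory subunit of several potassium channels in mammals, had no read in plp1b-low cells and 335 reads in plp1b-high cells, all from 1 lesion and 1 sham cell. On the other side, kcnip1b had 342 reads in 1 plp1b-low sham cell, against 1 read in all other cells. The gene kcnab1b, of the beta subunits that give some voltage-gated channels fast inactivation, had 196 reads in plp1b-low sham cells, from 2 cells, against 2 reads in plp1b-high sham cells and none in lesion cells. These levels rest on 1 to 3 cells each.

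Among calcium- and sodium-activated potassium genes, KCNMA1 encodes the large-conductance channel opened by calcium and depolarisation together. It ranged from 0 to 329 CPM in plp1b-low lesion cells and from 0 to 8.15 CPM in plp1b-low sham cells, while plp1b-high cells had no read in lesion and 2 reads in sham cells. The 5 plp1b-low lesion cells with it were 33.3% of 15 (11.8% to 61.6%), and no cell of the other 3 classes reached 5 reads. KCNN2, of the small-conductance channels that follow calcium entry, was detected in all 4 classes, at 18.4 CPM in plp1b-low lesion and 12.04 CPM in plp1b-low sham cells, against 22.7 CPM in plp1b-high lesion and 14.4 CPM in plp1b-high sham cells. KCNT1, opened by sodium, was detected in 1 lesion and 1 sham plp1b-low cell.

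KCNJ10 encodes the inward rectifier with which glia take up potassium. It ranged from 0 to 141 CPM in plp1b-low lesion cells and from 0 to 20.4 CPM in plp1b-low sham cells, and from 0 to 97.1 CPM in plp1b-high lesion cells and from 0 to 829.5 CPM in plp1b-high sham cells, with a median of 0 in all 4 classes. Detection was in 5 of 15, 2 of 6, 1 of 17 and 7 of 29 cells in that order. All classes overlapped at 0, and the highest cells were plp1b-high sham cells. In summed counts it stood at 19.6 CPM and 5.05 CPM in plp1b-low lesion and sham cells, against 6.24 CPM and 95.3 CPM in plp1b-high lesion and sham cells. KCNJ6, a G-protein-gated rectifier of neurons, was at 116 CPM in plp1b-low lesion cells from 2 cells, of which 1 gave 91.1% of the class's reads, and had no read in plp1b-low sham cells.

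All 5 two-pore genes, of channels that carry leak currents, were kept through plp1b-low cells, since none was detected in a plp1b-high cell. Their low level in plp1b-high cells therefore follows in part from the selection. KCNK15 had 353 reads in plp1b-low sham cells, with 5 or more in 2 cells, and none in any other class. KCNK3 had 69 reads in plp1b-low sham cells, all in 1 cell, and KCNK5 had 80 reads in 2 plp1b-low lesion cells. Together the 5 two-pore genes took 16.3 CPM in plp1b-low lesion and 164 CPM in plp1b-low sham cells, against 0.40 CPM in plp1b-high lesion cells and no read in plp1b-high sham cells.

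The sodium channel family took 56.0 CPM in plp1b-low lesion and 169 CPM in plp1b-low sham cells, against 10.1 CPM in plp1b-high lesion and 25.9 CPM in plp1b-high sham cells, of which SCNM1 gave 23.1 CPM. SCN2B, of a beta subunit that modulates the pore and acts in cell adhesion, had 87 reads in 2 plp1b-low lesion cells and none in any other class. Both genes of the pore SCN8A, the main sodium channel of nodes of Ranvier in mammals, were found in 1 or 2 plp1b-low cells each. The splicing factor gene SCNM1 had 374 reads in 2 plp1b-high sham cells and none in any other class.

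CLCN4, of the chloride family, was detected in more cells than any other channel gene and had the highest level per length: over all cells, CPM per kilobase of gene was 53.3 for CLCN4, 28.8 for KCNJ10, 17.7 for cacnb4b, 17.2 for CLCN7 and 10.5 for CLCN5 (ENSDARG00000019693). CLCN4 (chromosome 11, 43841953 to 43860928) encodes an endosomal exchanger. It ranged from 0 to 240.2 CPM with a median of 0 in plp1b-low lesion cells and from 0 to 842 CPM with a median of 158 in plp1b-low sham cells. It ranged from 0 to 1429 CPM with a median of 176 in plp1b-high lesion cells and from 0 to 729 CPM with a median of 0 in plp1b-high sham cells. All 4 classes overlapped. CLCN4 was detected in 3 of 15 plp1b-low lesion cells and 4 of 6 plp1b-low sham cells, and in 14 of 17 plp1b-high lesion cells (56.6% to 96.2%) and 9 of 29 plp1b-high sham cells (15.3% to 50.8%).

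CLCN7 and CLCN5 (ENSDARG00000019693) were found mainly in plp1b-high cells. CLCN7, the lysosomal exchanger whose loss causes bone and brain disease in mammals, was at 9.61 CPM in plp1b-low lesion cells and had no read in plp1b-low sham cells, against 165 CPM in plp1b-high lesion and 86.2 CPM in plp1b-high sham cells. Detection was in 2, 0, 4 and 5 cells in that order, and 1 plp1b-high lesion cell gave 87.1% of its class's reads. CLCN5 (ENSDARG00000019693) was at 13.03 CPM and 0.39 CPM in plp1b-low lesion and sham cells, against 132 CPM and 63.7 CPM in plp1b-high lesion and sham cells. Its log2 ratio of plp1b-low over plp1b-high cells was -3.07, and that of CLCN7 -3.85. CLCN6 was at 27.9 CPM in plp1b-high lesion cells from 2 cells, and below 2 CPM in the other 3 classes. CLCN3 was at 34.5 CPM and 25.2 CPM in plp1b-low lesion and sham cells, against 7.97 CPM and 5.88 CPM in plp1b-high lesion and sham cells. It was detected in 1, 1, 2 and 3 cells in that order. In each plp1b-low class 1 cell gave nearly all its reads, 98.1% in lesion and 93.8% in sham cells.

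**Figure D4:**
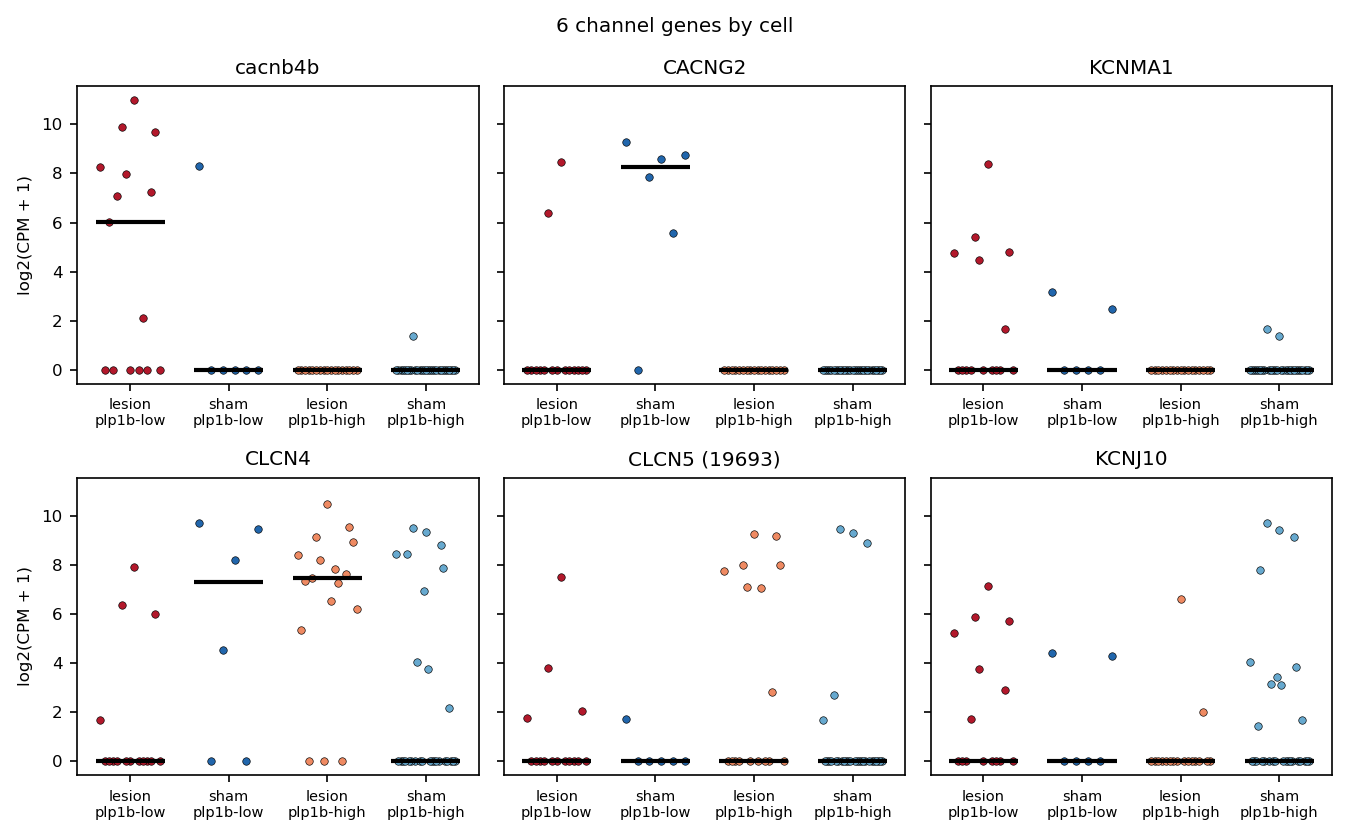
Level of 6 channel genes in each cell as log2(CPM + 1), 1 point per cell, with a bar at the median of each class. Points for cacnb4b and CACNG2 lie above 4 in plp1b-low cells only, CLCN4 reaches 14 of 17 plp1b-high lesion cells, and the highest KCNJ10 points are plp1b-high sham cells.

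Within plp1b-high cells, 23 channel genes could be compared between lesion and sham, of which 8 (34.8%) were 2-fold or more higher in lesion cells and 5 (21.7%) were lower by as much, with a median log2 ratio of 0.62. Of all 10776 genes compared, 31.9% were higher and 31.7% lower by this measure, with a median of 0.01, so the share of channel genes that were higher was near that of all genes. The 2 members that passed the rule for named genes were CLCN4, at 293 CPM in lesion and 98.3 CPM in sham cells (log2 ratio 1.57), and CLCN5 (ENSDARG00000019693), at 132 CPM in lesion and 63.7 CPM in sham cells (log2 ratio 1.04). Under TMM scaling the ratio of CLCN5 was 0.88, below 2-fold. Plp1b-high lesion cells also showed more genes of any kind than plp1b-high sham cells, at medians of 2212 and 1464, and the part of this in the CLCN4 difference was not tested. KCNJ10 ran the other way, at 6.24 CPM in lesion and 95.3 CPM in sham cells, but its reads came from 1 lesion and 7 sham cells.

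Within plp1b-low cells, 69 channel genes could be compared between the 15 lesion and 6 sham cells. Of these, 31 (44.9%) were higher in lesion cells by 2-fold or more and 29 (42.0%) were lower, with a median log2 ratio of 0.57. Of all 12362 genes compared, 53.2% were higher and 25.3% lower, with a median of 1.24. The median for channel genes depended on which cells entered. Leaving out 1 sham cell at a time gave medians from 0.46 to 1.30 (without well B01), with no change of sign. The sign turned, to -0.41, when the highest cell of each class was left out gene by gene, where the median of all genes was 2.03. It was also negative, at -1.09, among the cells with olig1, beside 0.16 for all genes. Members higher in lesion cells by the rule for named genes were KCNMA1 (log2 ratio 3.86), cacnb4b (2.60), KCNJ10 (1.76), CACNG5 (ENSDARG00000039240, 0.75) and KCNN2 (0.57). The last 2 were under 2-fold and below the median of 1.24 for all genes. Those lower in lesion cells included CACNA1A (-6.20), CACNA2D2 (-5.59), CLCN4 (-3.45) and CACNG2 (-2.77). In sham cells CACNG2 came from 5 of the 6 plp1b-low cells, whereas cacnb4b came from 1 cell (well C05), without which its ratio was 8.39. With the plp1b split at 20000 CPM, which moved 1 cell, the ratio of CLCN4 was -1.38.

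The plp1b-low cells of the 2 groups differed in the markers they carried. Marker and group can therefore not be fully told apart in the numbers of channel genes below. As markers, olig1, ISL1 with MNX1, and GPR17 were chosen for this description after their values were seen. The gene olig1, of a transcription factor of the oligodendrocyte lineage, was detected in 6 lesion and 5 sham plp1b-low cells. These had between 1 and 19 channel genes with a median of 10. This median joins both groups, and sham plp1b-low cells had the higher median of channel genes. The part of the marker in it was not tested. ISL1 and MNX1, transcription factor genes of motor neurons, were detected together in 3 lesion cells and no sham cell, with 3 to 10 channel genes. GPR17, a receptor gene of OPCs on the way to differentiation in mammals, marked 2 further lesion cells and 1 sham cell with 3 to 5 channel genes, and 4 lesion cells had none of these markers.

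CACNG2 was detected in 7 cells and CACNG5 (ENSDARG00000039240) in 6 cells, all of them among the 11 with olig1. The A-type genes kcnd1, KCND2 and KCND3 were likewise detected among these 11 cells alone, but in the same few of them. Both kcnd1 and KCND3 were detected in wells D11, B01 and C05, and KCND2 in wells C08 and B01. KCNMA1 and KCNN2 were detected in all 3 cells with ISL1 and MNX1, at 158 CPM and 78.8 CPM in their summed counts, against 2.28 CPM and 9.57 CPM in the 11 cells with olig1. Of the KCNMA1 reads in plp1b-low lesion cells, 82.4% came from 1 of these 3 cells (well E07). KCNF1 was detected in 2 of the 3 cells with ISL1 and MNX1 and in no other cell. Cells with cacnb4b were mixed, at 5 with olig1, 2 with ISL1 and MNX1, 1 with GPR17 and 1 with none. Without the 3 cells with ISL1 and MNX1, the log2 ratio of KCNMA1 in plp1b-low lesion over sham cells was 1.00, and that of cacnb4b was 2.51. With 3 and 6 cells in the smaller sets, fewer cells of a kind and less RNA per cell cannot be told apart in the summed counts.

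Other genes of ion transport, together with scaffold genes of nodes and paranodes, were read from a list of 135 genes. Of these, 123 entered the comparison of plp1b-low with plp1b-high cells. Of the 123, 73 (59.3%) were higher in plp1b-low cells by 2-fold or more and 32 (26%) were lower, with a median log2 ratio of 1.78, beside 44.9% higher and 26.7% lower of all genes. The list was built from symbol prefixes. It takes in 31 scaffold genes, which transport no ions. Of these, 30 entered, with 19 higher and 9 lower in plp1b-low cells. The prefixes also caught some other genes that transport no ions, such as STIMATE. Subunits of the sodium pump, which restores the gradients that the channels run down, took 3757 CPM in plp1b-low cells against 712 CPM in plp1b-high cells. Its beta subunit gene ATP1B4 was at 501 CPM and 806 CPM in plp1b-low lesion and sham cells, against 7.17 CPM and 0.37 CPM in plp1b-high lesion and sham cells. A gap junction gene ran the other way. GJB1, of a connexin of myelinating glia, was at 2.61 CPM and 2.33 CPM in plp1b-low lesion and sham cells, against 1764 CPM and 1814 CPM in plp1b-high lesion and sham cells, with 5 or more reads in all 46 of the plp1b-high cells.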

How the data were processed

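The deposited data are whole read counts per gene, as the authors left them after counting, in 1 table with a column for each cell. The submitters' processing notes name bcl2fastq 2.19.1 for demultiplexing, GSNAP for alignment, the build GRCz10 and featureCounts 1.6.2. Per the file headers, the counter was featureCounts 1.6.3 on Ensembl release 87, strand was ignored (-s 0), and mapping quality had to reach 1. Reads of overlapping or antisense genes and of near-identical copies therefore cannot be assigned with certainty, and 16 members share 8 symbols. The library kit is not given in the sources used here. Spike-ins (71 reads) were left out.

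The members and lists were chosen with earlier results of these data known. Counts were summed per class, scaled to CPM and compared as log2 with 1 CPM added, for genes with 5 or more reads in a cell and at least 1 CPM in either class (Python 3.11.15, pandas 2.3.3, scipy 1.17.1). Cells of 1 pool are not replicates, so no p-value was computed. Shares of cells carry exact Clopper-Pearson intervals at 95%, which treat cells as independent draws and do not cover the spread between pools. A gene at 0 was set against 3 reads over the class, a floor that covers the counting error of reads only. No cell was filtered and no doublet caller was run; cells with over 3500 genes were left out as an alternative.

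Named genes were the 3 most abundant of each family and, per comparison and direction, up to 5 members with the largest log2 ratio among those with at least 10 CPM and detection in 25% of cells and 3 cells of the higher class, in the same direction in per-cell means and without the highest cell (for plp1b-low over plp1b-high also in lesion and sham cells separately). Other genes are named as members of their families after their values were seen. Alternatives were TMM (edgeR 4.0.16) and DESeq2 1.42.0 size factors, per-cell means, other additions and filters, plate rows, thinned depth, other plp1b splits and omitted cells. The scripts were tested on simulated data. Names of 17 marker genes had no match in the gene name table. Values of some genes are not reported here.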

Additional observations from a re-analysis of the deposited data

Results flagged for a closer look

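For 2 genes the log2 ratio of plp1b-low over plp1b-high cells had opposite signs in the lesion and the sham pool. With 1 pool per operation the difference was not tested. For KCNJ10 it was 1.505 in lesion and -3.99 in sham cells. For CLCN4 it was -3.24 in lesion and 1.78 in sham cells.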

How the results depend on the processing

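The 2-fold counts and medians moved with the added CPM, the filter and the cells that entered. For plp1b-low over plp1b-high cells the median log2 ratio was 5.10 with 0.1 CPM added and 1.27 with 5 CPM added. It was 3.91 at a filter of 10 CPM and 1.75 without the highest cell of each class, left out gene by gene. Of the channel genes that entered, 27 of 36 were higher at 10 CPM. Without the highest cell 31 of 46 were higher, and in plate rows F to H 33 of 48. Of all genes, 43.5%, 40.4% and 38.6% were higher in these settings. For lesion over sham in plp1b-high cells, higher and lower counts were 5 and 3 with 5 CPM added and at 10 CPM, the lower count was 3 in rows F to H, and the median was 0 without a filter. In plp1b-low cells the counts were 18 higher at 10 CPM, 18 higher and 18 lower without the highest cell, and 15 higher in rows F to H, and the median was -1.31 at 10 CPM, -0.41 without the highest cell, 1.45 in rows B to E, -1.03 in rows F to H, -0.022 without cells of over 3500 genes, -1.09 among cells with olig1 and 1.30 without sham cell B01. Signs turned for KCNJ6 (-0.11, rows F to H), KCNK3 (-0.12, rows B to E) and cacna1ha (0.12, rows B to E) in plp1b-low over plp1b-high cells, and for KCNJ10 in plp1b-low lesion over sham cells (-0.46, rows F to H); the cause was not tested. Requiring 5 reads in 2 cells left 54 members. At 1 read the median number of channel genes was 10 and 17.5 in plp1b-low lesion and sham cells, and 7 and 6 in plp1b-high lesion and sham cells, and in plp1b-high sham cells it was 1 at 10 reads and 1 after thinning. Channel genes took 653 CPM in plp1b-low lesion cells of rows F to H, and 472 CPM in plp1b-high lesion cells without CLCN4. No paired analysis was possible because all cells of a group came from 1 pool and their numbers only name them. Alternatives with cells left out or olig1 cells alone were chosen after seeing the data. Genes with few reads per cell cannot be called absent at this depth.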
